A study of Rattus norvegicus with 30 samples.

Results

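The effect of dimethyl fumarate (DMF) on primary rat hippocampal neurons after 4 h is described here gene by gene, from 3 RNA libraries of neurons given DMF and 3 given its vehicle, dimethyl sulfoxide (DMSO). All genes annotated as protein-coding were taken, which are 18979 of the 20277 genes listed for this comparison. Of these, 14085 had enough reads to be tested. Libraries were paired by their replicate number, since the series was made in 3 independent experiments. The whole series holds 30 libraries of neurons treated with DMF, monomethyl fumarate (MMF) or cannabidiol (CBD), or with vehicle, for 4 or 24 h, with 20180 protein-coding genes in the tables used.

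Neurons came from the hippocampus of wild-type Wistar rat embryos at embryonic day 18 and were kept for 7 days in neurobasal medium with B-27 supplement before treatment. DMF and MMF were given at 30 µM with DMSO at 0.2%, and CBD at 6 µM with ethanol (EtOH) at 0.2%. DMSO alone at 0.2% was the control for both fumarates, and EtOH alone at 0.2% for CBD. The sources used here name no step that removes glia, so that the cultures may hold other cell types. The number of embryos pooled in a culture is not given in the sources used here.

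DMF is an ester of fumaric acid, used as a medicine in multiple sclerosis, that reacts with the thiol groups of cysteines. One of the proteins it modifies is Keap1, which otherwise marks the transcription factor Nrf2 for degradation. Nrf2 switches on enzymes that detoxify, synthesise glutathione and reduce thioredoxin. Cells also respond to unfolded proteins in the endoplasmic reticulum (ER) with more chaperones, through the factors ATF6 and XBP1, and with genes of amino acid supply and stress, through the kinase PERK and the factor ATF4. Cholesterol synthesis is set by the SREBP factors, which are held in the ER while sterol is plentiful. In neurons, synaptic activity switches on immediate early genes such as Fos, Npas4 and Arc within minutes.

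Short stretches of the promoters of called genes, and of Xbp1, which was not called, are shown first, because the letters that ER stress and amino acid stress factors are known to bind can be read in them. They come from RefSeq, on the GRCr8 assembly, which holds the 250 bases before and 50 bases after the start of 10120 of the genes tested. The ER stress element is CCAAT and CCACG 9 bases apart, and it is shown in capitals on either strand, so that on the other strand it reads CGTGG and ATTGG.
Hspa5: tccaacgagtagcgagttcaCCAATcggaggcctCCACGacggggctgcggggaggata
Hsp90b1, distal copy: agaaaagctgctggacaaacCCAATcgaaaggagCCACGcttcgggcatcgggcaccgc
Hsp90b1, proximal copy: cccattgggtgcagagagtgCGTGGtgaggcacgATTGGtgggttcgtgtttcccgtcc
Creld2: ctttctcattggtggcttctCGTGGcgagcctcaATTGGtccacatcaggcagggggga
Dnajc3: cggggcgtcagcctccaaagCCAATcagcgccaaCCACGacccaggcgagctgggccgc
Calr: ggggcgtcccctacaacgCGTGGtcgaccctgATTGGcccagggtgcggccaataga
Xbp1: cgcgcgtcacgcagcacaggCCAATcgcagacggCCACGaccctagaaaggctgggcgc
These lie at chr3:38452953-38453011 (plus strand) for Hspa5, chr7:23012431-23012489 (minus strand) and chr7:23012327-23012385 (minus strand) for Hsp90b1, chr7:121789219-121789277 (plus strand) for Creld2, chr15:102432514-102432572 (plus strand) for Dnajc3, chr19:40213117-40213173 (plus strand) for Calr and chr14:84604538-84604596 (plus strand) for Xbp1. In Hspa5 the element runs from base -43 to -25 counted from the start of the gene.

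The second set holds the ATF4 element TTGCATCA, or TGATGCAA on the other strand, in capitals.
Chac1: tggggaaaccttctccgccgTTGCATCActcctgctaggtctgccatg
Herpud1: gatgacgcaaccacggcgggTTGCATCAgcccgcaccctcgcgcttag
Jdp2: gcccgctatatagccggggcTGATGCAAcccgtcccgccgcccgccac
Slc1a4: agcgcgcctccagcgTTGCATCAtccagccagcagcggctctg
Cars1: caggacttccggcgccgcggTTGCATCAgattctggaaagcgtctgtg
They lie at chr3:126795944-126795991 (plus strand) for Chac1, chr19:10614864-10614911 (minus strand) for Herpud1, chr6:110993555-110993602 (plus strand) for Jdp2, chr14:98761770-98761812 (minus strand) for Slc1a4 and chr1:208225325-208225372 (minus strand) for Cars1. A match is a run of letters and was not measured as a bound site.

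The 6 libraries held between 16911610 and 25367834 reads on genes, of which 4.12% to 5.84% lay on mitochondrial genes and 4.75% to 6.02% on the 10 highest genes. Values are normalized counts, the reads on a gene scaled by the authors with a size factor of the library, so that they can be compared between libraries for one gene but not between genes of different length. A difference is a log2 fold change (log2FC) of DMF over DMSO, on the log2 of the value with 1 added, with its standard error (SE). It was tested in limma with the replicate number as a block, and a gene with an adjusted p under 0.05 over all genes tested is called higher or lower.

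DMF changed 3262 of the 14085 genes in nearly equal numbers each way. It raised 1625 genes (11.5%) and lowered 1637 (11.6%). Most changes were small. The median log2FC of the genes called was 0.31 for those that rose and -0.39 for those that fell, and 72.2% of the former and 66.0% of the latter moved by less than 0.5. Strong changes, beyond a log2FC of 1 or -1, were more often rises, with 195 genes against 100. In 1215 of the genes that rose and 1189 of those that fell, the DMF and DMSO libraries did not overlap, as in 3712 of all genes tested (26.4%). All 3 pairs moved the same way in 1616 and 1619 of the genes called. The call rests on the same pairs, so that this agreement follows in part from the selection. Without the replicate block 261 genes rose and 220 fell, and without replicate 3 the test gave 756 and 863. Since RNA came from whole cultures, fewer cells of a type and less RNA per cell cannot be told apart.

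**Figure D1:**
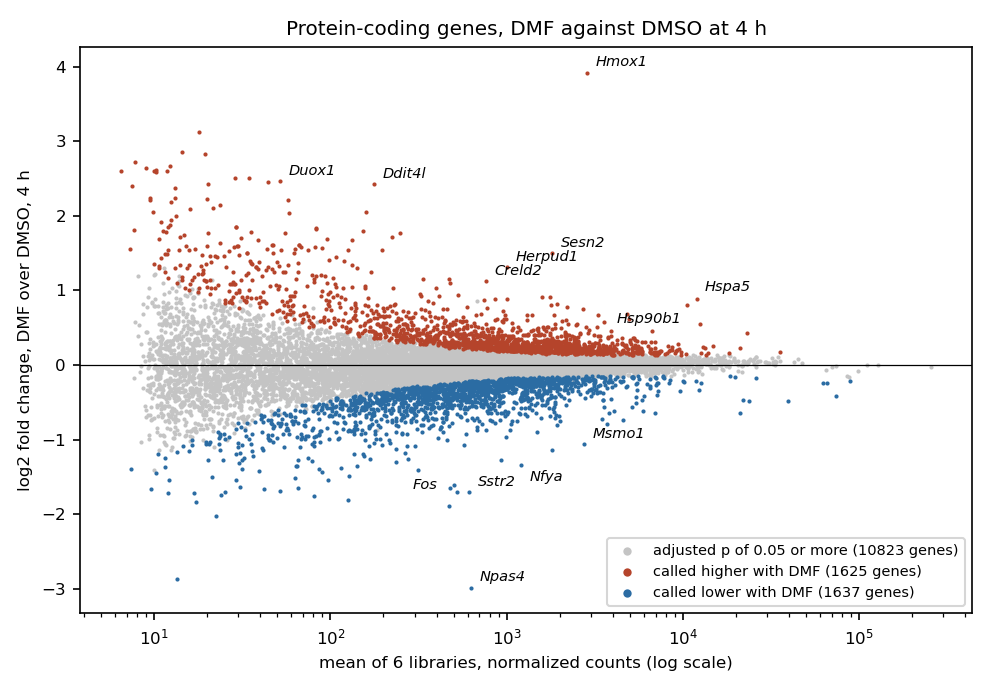
Log2 fold change of DMF over DMSO at 4 h (vertical axis) against the mean normalized count of the 6 libraries (horizontal log axis), 1 point for each of the 14085 protein-coding genes tested. Red points are the 1625 genes called higher and blue points the 1637 called lower. Hmox1 stands highest at a log2 fold change of 3.92, while Hspa5, Hsp90b1 and Sesn2 rose at high counts.

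The smallest p of all genes belonged to Hmox1, the heme oxygenase that breaks heme down to biliverdin, iron and carbon monoxide and a classical Nrf2 target. Hmox1 (mRatBN7.2 chr19:13467244-13474079) was counted at 453, 381 and 209.6 with DMSO and 6758, 6349.9 and 2940.2 with DMF, in the order of replicates 1 to 3. Every DMF library stood above every DMSO library, with a log2FC of 3.92 (SE 0.063, adjusted p = 8.88e-16). Replicate 3 was lowest in both groups, and the 3 pairs moved alike. Without the block the log2FC was the same and the adjusted p was 0.00469.

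Among the Nrf2 targets, 31 genes were tested, of which 15 rose and 1 fell, with a median log2FC of 0.16 against 0.0017 over all genes. Without the replicate block 6 of them rose. The thioredoxin branch, in which Osgin1 was counted, moved most evenly, with 5 of 6 members up. Srxn1, sulfiredoxin, which restores over-oxidised peroxiredoxins, was counted at 31.5, 43.3 and 45.6 with DMSO and 151, 129 and 89.1 with DMF and rose by a log2FC of 1.58 (SE 0.22, adjusted p = 0.000155). Its groups did not overlap. Osgin1, an oxidative stress-induced growth inhibitor, went from 17.2, 5.85 and 17.1 to 106, 73.5 and 45.5, a log2FC of 2.46 (SE 0.33, adjusted p = 0.000111). Thioredoxin reductase Txnrd1, which keeps thioredoxin reduced, rose by 0.68 (adjusted p = 5.48e-06). Peroxiredoxin Prdx1 and thioredoxin Txn1 rose by only 0.17 and 0.16.

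In the glutathione branch 3 of 8 members rose, and these 3 stand at its entry. Gclc and Gclm, the subunits of the enzyme that commits glutamate and cysteine to glutathione, rose by a log2FC of 0.67 and 0.52. The cystine importer Slc7a11 rose by 0.70. Gss and Gsr, which finish and recycle glutathione, had values of 0.091 and 0.15 and did not pass the test. Of 12 detoxification genes, 6 rose and 1 fell. Besides Hmox1 these were the glutathione transferases Gsta1 (0.75) and Gstp1 (0.32), the quinone reductase Nqo1 (0.65), the exporter Abcc4 (0.46) and Ugdh (0.37), which makes UDP-glucuronate, while the exporter Abcc1 fell (-0.28). Gsta1 belongs to a family of near-identical genes, and how reads shared between such genes were counted is not stated. Only Me1 (0.26), malic enzyme, rose among 5 genes that supply NADPH.

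The regulators themselves moved little. Nfe2l2, which encodes Nrf2, was counted at 373, 296 and 193 with DMSO and 423, 357 and 226 with DMF, with a log2FC of 0.23 that did not pass the test (adjusted p = 0.108). Keap1 had a log2FC of -0.11 (adjusted p = 0.297). Of 10 regulators tested, 4 rose and 1 fell, against 2 and 0 without replicate 3. The largest rise was that of Mafg (0.46), a small Maf protein that pairs with Nrf2, and the fall was that of Bach2 (-0.23), a repressor of the same sites. Iron handling, which follows heme breakdown, showed 1 rise, Hmox1 itself, and 1 fall, ferrochelatase Fech (-0.29), among 14 genes, and the ferritin chains Fth1 (0.11) and Ftl1 (0.063) did not pass.

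**Figure D2:**
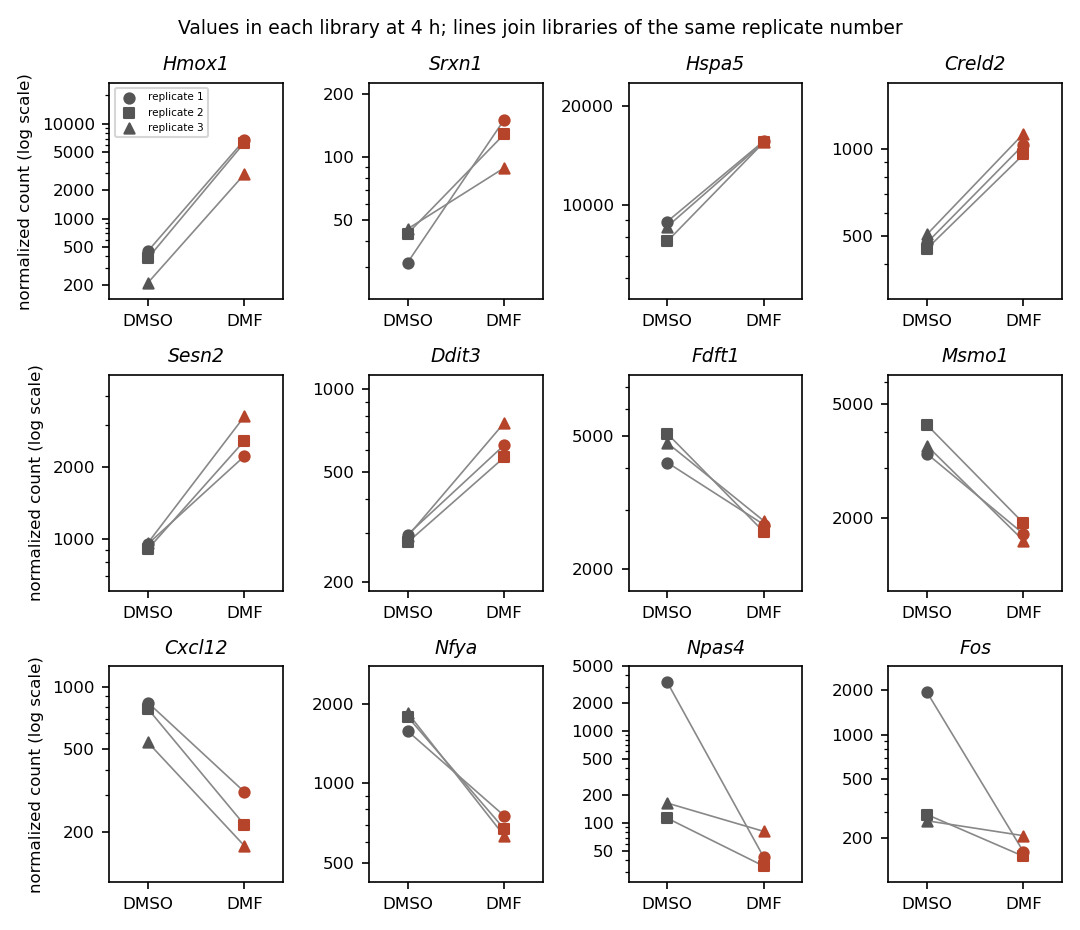
Normalized counts (vertical log axis) of 12 genes in the 3 DMSO and 3 DMF libraries at 4 h, with a line joining libraries of the same replicate number. Hmox1, Srxn1, Hspa5, Creld2, Sesn2 and Ddit3 rise and Fdft1, Msmo1, Cxcl12 and Nfya fall in each pair without overlap of the groups, and for Npas4 and Fos DMSO replicate 1 stands far above the other DMSO libraries.

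The chaperones of the ER rose together. Of 16 tested, 13 rose and none fell, with a median log2FC of 0.62. Hspa5 (chr3:18055405-18059891), the HSP70 of the ER known as BiP, was counted at 8912, 7767 and 8604 with DMSO and 15615, 15487 and 15502 with DMF. The DMF libraries lay within a narrow range far above the DMSO libraries (log2FC 0.88, SE 0.05, adjusted p = 2.69e-08). Hsp90b1, the HSP90 of the ER, went from 7969, 7732 and 7376 to 13821, 13796 and 12849 (log2FC 0.81, adjusted p = 2.69e-08). Creld2, a secreted ER stress protein, went from 473, 451 and 506 to 1035, 958 and 1131 (log2FC 1.12, adjusted p = 6.04e-08). In none of these 3 genes did the groups overlap. Dnajc3, the co-chaperone that restrains PERK, rose by 0.94, Sdf2l1 by 0.71, Hyou1 by 0.69, calreticulin Calr by 0.55 and Dnajb11 by 0.49. The related factors Cdnf and Manf rose by 1.55 and 1.31 at low levels, under 30 normalized counts in each library. Dnajc10, Sil1 and Hspa13 did not pass the test.

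The enzymes that form disulfide bonds and the parts of ER-associated degradation followed in smaller measure. Of 10 disulfide genes, 6 rose, led by Pdia4 (0.81), Ero1b (0.53) and Pdia6 (0.34). Of 12 degradation genes, 6 rose and 1 fell. Herpud1, an ER membrane protein that assembles the degradation complex, was counted at 577, 504 and 615 with DMSO and 1188, 1202 and 1931 with DMF and rose by 1.31 (SE 0.091, adjusted p = 2.26e-07), with no overlap. Derl3 (0.63), Edem1 (0.40), which marks misfolded glycoproteins, and the ubiquitin ligase Syvn1 (0.32) rose as well. The protein channel into the ER showed less, with 3 of 15 translocon genes up, Sec61a1 (0.19) among them.

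The sensors of ER stress gave a mixed picture. Eif2ak3, which encodes PERK, rose by 0.31, while Ern1, encoding IRE1, at 0.17, Atf6 at -0.14 and Xbp1 at 0.13 (adjusted p = 0.0984) did not pass. The spliced form of Xbp1 cannot be told apart in counts per gene. Over the 63 ER stress genes 31 rose and 1 fell, and without the replicate block 15 rose.

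**Figure D3:**
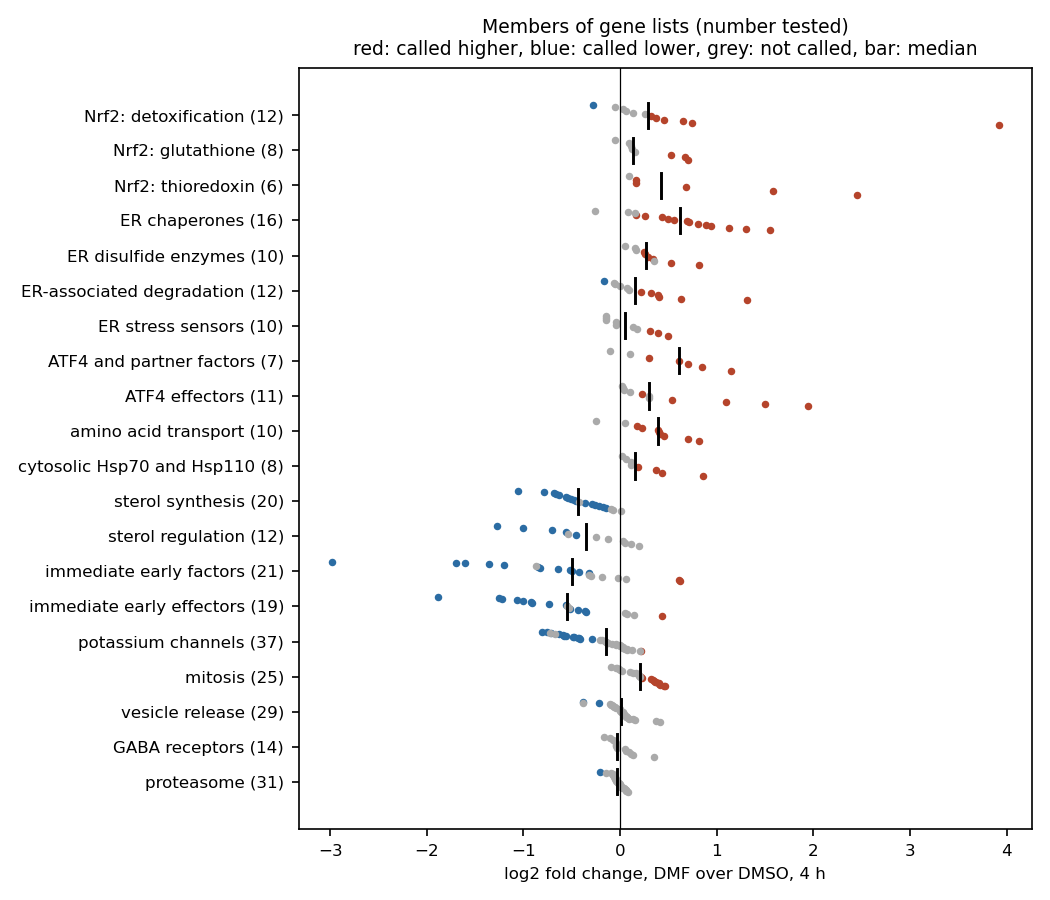
Log2 fold changes of DMF over DMSO at 4 h (horizontal axis) for the members of gene lists, 1 point a gene, with the genes called higher and lower in colour. Of 16 ER chaperones 13 rose, and of 20 sterol synthesis genes 16 fell.

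The ER stress element shown above occurs in 15 of the 10120 promoters (0.148%). Of these 15 genes, 10 rose (66.7%) and 1, Zfp57, fell (-0.64), while 12.1% of all genes with a promoter rose and 12% fell. The element lay in 6 of 14 ER chaperone promoters. Besides the genes printed, Derl3, Ero1b, Canx, Zfand2a and Hnrnpa3 held it and rose, whereas Xbp1, Birc5, Pan2 and Ppm1l held it and were not called. The CCAAT box alone was in 37.5% of promoters, and 12.8% of genes with it rose. The Nrf2 element TGACNNNGC was in 14.7% of promoters, the heat shock element GAANNTTC in 5.54% and the metal element TGCACNC in 13.5%. Of genes with these, in that order, 11.1%, 11.4% and 11.3% rose, under the 12.1% of all genes with a promoter. The shares that fell were 12.7%, 13.01% and 12.2%. The Nrf2 element was in 7 of 24 promoters of the Nrf2 target list. The heat shock element was in 15 of 30 promoters of the heat shock list. These shares are descriptions of the letters in a window of fixed length and carry no test.

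Genes downstream of ATF4 rose in the groups of factors, effectors and amino acid transport. Of 43 tested, 21 rose and 1 fell, with a median log2FC of 0.22. Only 5 rose without the replicate block and 13 without replicate 3. Sesn2 (chr5:144701530-144721260), sestrin 2, a leucine-binding inhibitor of mTORC1, was counted at 950.3, 905 and 960.3 with DMSO and 2224, 2583 and 3269 with DMF, with a log2FC of 1.5 (SE 0.078, adjusted p = 1.26e-08). It had the second smallest p of the genes that rose, and its groups did not overlap. Ddit3, the pro-apoptotic factor CHOP, went from 297, 278 and 293 to 626, 566 and 754 (log2FC 1.15, adjusted p = 9.74e-07), also without overlap. Chac1, which cleaves glutathione, went from 399.8, 223 and 282 to 537, 505 and 909.5 (1.09, adjusted p = 0.000162). Atf4 itself rose by 0.30, a modest change at the RNA level, and Jdp2 and the pseudokinase Trib3 rose by 0.70 and 0.85. These 3 lost their calls without replicate 3 (adjusted p = 0.0571, 0.108 and 0.238), and Trib3 also without replicate 2 (adjusted p = 0.105).

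Of 10 amino acid transporters 8 rose. The cationic transporter Slc7a1 led with 0.82 (adjusted p = 1.86e-06), followed by Slc7a11, and then the glycine carrier Slc6a9 (0.45), the glutamine carrier Slc38a2 (0.40) and Slc1a4 (0.39). Of 15 genes of amino acid synthesis, 3 rose and 1 fell. Mthfd2, of mitochondrial folate metabolism, rose by 0.89 and the serine phosphatase Psph by 0.56, whereas Cth, cystathionine lyase, fell (-0.45). Psat1 (0.17) and Phgdh (0.019), of the same serine pathway, did not pass. Of 20 tRNA synthetases, 5 rose and 2 fell, against 3 and 0 without replicate 3. Cars1 (0.43), Iars1 (0.38) and Aars1 (0.31) moved most. The ATF4 element was in 55 promoters (0.544%), of which 13 belonged to genes that rose (23.6%) and 6 to genes that fell (10.9%). It was in 6 of 33 promoters of the ATF4 list (18.2%). Of these, Chac1, Jdp2 and Slc1a4 rose, whereas Got1, Pycr1 and Slc38a1 were not called.

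Cytosolic heat shock genes rose in part. Of 38 tested, 12 rose and 1 fell, and 4 rose without the replicate block. The constitutive HSP70 Hspa8 went from 18853, 19494 and 20594 to 25626, 26139 and 27577 (log2FC 0.43, adjusted p = 2.17e-05). Hsph1, an HSP110, rose by 0.37, Fkbp4, an HSP90 partner, by 0.33 and Dnajb1, an HSP40, by 0.32. The inducible Hspa1b rose by 0.86 (adjusted p = 0.0189), but it may share reads with a near-identical neighbour and its value is uncertain. None of 4 small or 4 mitochondrial heat shock genes passed. Among the heat shock factors Hsf4 rose (1.34) and Hsf1 did not pass.

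Genes of cholesterol synthesis fell almost throughout. Of 20 enzymes tested, 16 fell and none rose, with a median log2FC of -0.44. Msmo1, a sterol methyl oxidase, was counted at 3364, 4243 and 3587 with DMSO and 1765, 1924 and 1672 with DMF and fell the most, with a log2FC of -1.06 (SE 0.055, adjusted p = 1.26e-08). Its DMF libraries all lay below its DMSO libraries. Squalene synthase Fdft1 (log2FC -0.79), Idi1 (-0.69), squalene epoxidase Sqle (-0.51) and Hmgcs1 (-0.48) fell too. Ebp (-0.43), Sc5d (-0.093), Tm7sf2 (-0.07) and Pmvk (0.014) did not pass the test.

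Of 12 genes of sterol transport and control, 5 fell and none rose. The sterol carrier Stard4 was counted at 641, 735 and 466 with DMSO and 351, 326 and 237 with DMF, without overlap of the groups, and fell (-1.0), as did Srebf1 (-0.70), Insig1 (-0.56), which retains SREBP in the ER, and the cholesterol exporter Abca1 (-0.46). Srebf2 (-0.13) and Scap (0.11) did not pass. Over both roles, 21 of 32 genes fell, and 10 fell without the replicate block. The sterol element TCACNCCAC, searched on both strands, was in 0 of 23 promoters of this list and in 1.09% of all promoters, which says only that these letters are not in the window read.

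For the immediate early genes, DMSO replicate 1 stood apart from the other DMSO libraries, and the main falls are given with and without the pair of replicate 1. Of 40 genes tested, 26 fell and 3 rose, with a median log2FC of -0.53. Npas4 (chr1:202281958-202286724), a factor induced by calcium entry in neurons, was counted at 3334, 113 and 165 with DMSO and 42.9, 34.4 and 81.7 with DMF, and fell (log2FC -2.98, SE 0.61, adjusted p = 0.00241). The groups did not overlap, but DMSO replicate 1 was far above the rest, and without replicate 1 the log2FC was -1.35 (adjusted p = 9.88e-06). Fos, a subunit of AP-1, went from 1934, 289.9 and 263 to 163, 152 and 209 (-1.61, adjusted p = 0.00541), and without replicate 1 its log2FC was -0.63 (adjusted p = 0.0016). Bdnf, the neurotrophin, went from 1674, 383 and 437 to 329, 269.9 and 339.7 (-1.07), and the value without replicate 1 was -0.43 (adjusted p = 0.00525). Arc, a synaptic cytoskeletal protein, overlapped between the groups, with 2288, 92.4 and 167 with DMSO and 112, 113 and 54.8 with DMF (log2FC -1.89, without replicate 1 -0.66, adjusted p = 0.0495). In DESeq2 with the same block none of these 4 falls passed, with an adjusted p of 0.153 for Npas4, 0.265 for Fos, 0.274 for Bdnf and 0.304 for Arc.

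Other members depended on that library to unequal degrees. Nr4a1, an orphan nuclear receptor, went from a log2FC of -1.70 to -0.64 without replicate 1 (adjusted p = 0.00563), whereas Egr3 (from -0.85 to -0.24), Nr4a2 (from -0.83 to -0.23) and Sik1 (from -0.52 to -0.16) lost their calls (adjusted p = 0.191, 0.161 and 0.256). Rgs2, which quickens the end of G protein signals, was counted at 1093, 573 and 658 with DMSO and 442, 354 and 389 with DMF (-0.92, adjusted p = 2.17e-05, without replicate 1 -0.73). Btg2, an antiproliferative gene, went from 1526, 1069.8 and 837 to 740.0, 834 and 475 (-0.74, without replicate 1 -0.59). Gadd45b (-1.26, without replicate 1 -0.98), a stress sensor linked to DNA demethylation, and Srf (-0.52, without replicate 1 -0.40), the serum response factor, fell as well. These 4 kept their calls without replicate 1. Over the list, 17 members fell and 6 rose without replicate 1, 27 fell and 0 rose without replicate 3, and without the block 0 fell and 0 rose. Fosb and Fosl2 lost their calls without replicate 1 (adjusted p = 0.729 and 0.191), as did Egr2 (adjusted p = 0.0805). Crem, which encodes CRE-binding activators and repressors, Atf3 and the kinase Plk3 rose, by 0.62, 0.61 and 0.44, and lost their calls without replicate 3 (adjusted p = 0.211, 0.207 and 0.237). Egr1 (-0.19) and Jun (-0.026) did not pass. The cyclic AMP element TGACGTCA was in 324 promoters (3.20%), of which 7.41% belonged to genes that rose and 18.8% to genes that fell, and in 7 of 32 promoters of this list.

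Among factors that bind promoters broadly, Nfya fell, 1 of the 3 subunits of NF-Y, the CCAAT-binding complex. Nfya (chr9:12586259-12613898), the subunit that contacts the CCAAT box, was counted at 1576, 1785 and 1848 with DMSO and 756, 675 and 636 with DMF (log2FC -1.33, SE 0.079, adjusted p = 3.69e-08). Every DMF library was below every DMSO library, and the spread within groups was small. Nfyb (-0.12) and Nfyc (0.17) did not pass. Of 14 Krüppel-like factors 3 fell, led by Klf7 (1771, 1930.3 and 2096 to 1099, 994 and 1027, -0.89), a factor of axon growth, with Klf6 (-0.62) and Klf15 (-0.62). Sp1 (0.19) and Sp4 (0.34) rose, though not without replicate 3 (adjusted p = 0.231 and 0.307), and Sp2 (-0.29) and Sp9 (-0.56) fell. Bcl11a (-0.74, adjusted p = 6.69e-07) and Neurod2 (-0.66, adjusted p = 1.58e-06), factors of forebrain neuron development, were among the 10 falls with the smallest p, and Tbr1 fell too (-0.64).

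The falls taken by size or by p held these genes. Cxcl12, the chemokine that binds CXCR4, was counted at 839.6, 783 and 539.9 with DMSO and 312, 217 and 172 with DMF (log2FC -1.64, adjusted p = 3.69e-08). Sstr2, a somatostatin receptor, went from 1297, 538 and 992 to 381, 189 and 277 (-1.70, adjusted p = 1.26e-08). Neither gene overlapped between the groups. Further large falls were those of Fam181a (-1.80), Has2 (-1.75), a hyaluronan synthase, Alkal2 (-1.64), a ligand of the kinase ALK, G0s2 (-1.48), an inhibitor of fat breakdown, the receptor Mchr1 (-1.43) and the Notch target Nrarp (-1.40). Of 14 regulators of G protein signalling 4 fell, Rgs2, Rgs4 (-0.87), Rgs8 (-0.83) and Rgs16 (-0.57), and Rgs17 rose (0.48). The glucose transporter Slc2a1 fell (-0.96), while of 16 glycolytic enzymes 2 rose and none fell.

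Channel and receptor genes of neurons moved mainly among the potassium channels. Of 37 potassium channel genes tested, 13 fell and 1 rose, with a median log2FC of -0.14. The leak channel Kcnk1 was counted at 821, 864 and 934 with DMSO and 456, 516 and 585 with DMF (-0.76, adjusted p = 5.31e-06), and the groups stood apart. Kcna1, a voltage-gated channel of axons, went from 3758, 1551 and 2186 to 1681, 1007 and 1415 (-0.80, adjusted p = 1.02e-05), with overlap between the groups. Kcna4 (-0.72), the calcium-activated Kcnn2 (-0.58) and Kcnj3 (-0.49) fell, and Kcnq5 rose (0.21). Without the replicate block, 3 of the channel list fell. Of 9 sodium and 15 calcium channel genes, 2 each rose and none fell. Of these rises and that of Kcnq5, 0 remained without replicate 3 and 0 without the block. Among receptors there were few calls, with 1 of 22 glutamate receptor genes up and 2 down, Grin1 (-0.16) and Grin2b (-0.21), none of which was called without replicate 3, and 0 of 14 GABA receptor genes called. Of 29 vesicle release genes 2 fell, and of 19 postsynaptic genes 4 rose and 1 fell.

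Genes of mitosis rose slightly. Of 25, 12 rose and none fell, with a median log2FC of 0.20, while of 21 replication genes 1 rose and 1 fell. Of the 46 genes of both roles 13 rose, 8 without replicate 3 and 0 without the replicate block. Prc1, of the spindle midzone, rose by 0.47 (adjusted p = 0.000126), Kif23 by 0.42 and Top2a, topoisomerase, by 0.32. Of 14 p53 targets 5 rose, among them Cdkn1a (0.45) and Sesn1 (0.41), and Btg2 fell. In the Bcl2 family 3 of 12 rose and 4 fell, led by Bmf (-0.81), a pro-apoptotic member. Over both groups 8 rose and 5 fell, against 3 and 2 without replicate 3 and 1 and 0 without the block. In the NF-kB pathway 1 of 15 rose, Relb (0.46), and 3 fell, Nfkbia (-0.33) among them, and of 5 inflammation genes tested 2 fell, Ccl2 (-2.02) among them. Without replicate 3, 0 of these 20 rose and 2 fell. Of 22 autophagy genes 6 rose, and of 31 proteasome genes 1 fell. The metallothioneins Mt1 (-0.66) and Mt2A (-0.63) fell, and 0 of 9 zinc exporters were called.

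Markers of several cell types were counted in the cultures. The summed normalized counts of 18 neuron markers were 131312 to 153246 with DMF and 142178 to 162884 with DMSO. Those of 10 astrocyte markers were 46445 to 90222 and 53590 to 90717, and replicate 3 was lowest in both groups. Sums over different genes do not compare the amounts of cell types. For 13 markers of the oligodendrocyte lineage the sums were 10482 to 14563 and 12612 to 14575. Microglia markers summed to 78.0 to 269 and 63.1 to 289 over 10 genes, with P2ry12 and Tmem119 under 10 in every library. Of 11 vascular and fibroblast markers 10 were listed, and these summed to 1378 to 2494 and 1619 to 3748, with Cdh5 under 10. No listed marker was at 0 in all libraries. Interneuron markers, 12 genes, summed to 8973 to 11478 and 9914 to 12231. The ranges of DMF and DMSO overlapped for each of these lists. Within pairs of the same replicate number, the sums of neuron, interneuron and oligodendrocyte lineage markers were lower with DMF in 3 of 3 pairs, and those of astrocyte, microglia and vascular markers in 2 of 3. The part of cell mixture in the results above was not tested. Single markers moved, with falls of Tubb3 (-0.64), Gfap (-0.47), Pdgfra (-0.64), Nkx2-2 (-0.92) and Pdgfrb (-1.26) and a rise of Rbfox3 (0.23). Of the 18 neuron markers 1 rose and 5 fell. These were 1 rise and 1 fall among 11 general markers and 4 falls among 7 glutamatergic markers, which had a median log2FC of -0.46 and include Neurod2 and Tbr1. Of 11 interneuron markers 1 rose and 5 fell, of 10 astrocyte markers 3 fell, of 7 oligodendrocyte precursor markers 4 fell, of 8 vascular and fibroblast markers tested 3 fell, and of 4 microglia markers tested none was called.

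Some of the rises with the smallest p lie outside the stress pathways. Dgcr8, the partner of Drosha in cleaving microRNA precursors, was counted at 1008, 1106 and 1169.9 with DMSO and 1972, 2001 and 2238 with DMF (log2FC 0.92, SE 0.057, adjusted p = 5.83e-08). Pcf11, which ends transcripts at poly(A) sites, went from 1204, 1300.1 and 1164 to 2199.7, 2182 and 2524 (0.91, adjusted p = 4.41e-07). Both stood apart between the groups. Drosha (-0.055) and Dicer1 (-0.042) did not pass.

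The largest rises were ranked among genes with a mean of at least 50 normalized counts over the 6 libraries. With DMSO, 5 of the 10 largest were below that level (Duox1, Slc2a2, Dao, Ubap1l and Gnrh1), so that they entered through their DMF libraries and the ranking is only a description. Duox1, which makes hydrogen peroxide, was counted at 14.3, 15.2 and 14.8 with DMSO and 85.8, 62.6 and 119 with DMF (2.47, adjusted p = 9.83e-06). Ddit4l, an inhibitor of mTOR, went from 65.8, 40.9 and 51.3 to 444, 286 and 178 (2.43, adjusted p = 6.3e-07). In both, all DMF values lay above all DMSO values. The others of the 10 largest were Slc2a2 (2.21), Myom2 (2.06), Dao (2.04), Ubap1l (1.84), Gnrh1 (1.82), Spon2 (1.79) and Wfikkn1 (1.77), several of which are known from muscle, liver or endocrine tissue. The 195 genes that rose strongly had a median normalized count of 29.8 against 555 over all genes tested, and 166 of them (85.1%) were under 100. Their median span was 11030 bases against 24980. The 100 genes that fell strongly were also low and short, with a median of 53.2, 67 of them under 100 and a median span of 9559 bases. Among the genes that rose strongly, 135 had a known strand, and in 28 (20.7%) a same-strand gene ended within 5000 bases before the start. The same held for 966 of 10120 over all genes (9.5%), 12.4% of the genes that rose and 7.8% of those that fell. Among the genes that fell strongly it held for 4 of 59 (6.8%). This feature was looked at after the data had been seen, and has no test. For Wfikkn1 the gene before it is Rab40c, with a log2FC of 0.24.

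DMF and MMF differ by 1 methyl ester group, which in MMF is a free acid, and both were given at 30 µM for 4 h, so that this pair of compounds was compared directly. Of 14085 genes 1694 were higher with DMF than with MMF (12%) and 1640 lower (11.6%), and without the replicate block the counts were 130 and 93. MMF against DMSO gave 0 calls of 13929 genes in limma (0%), 0 in edgeR and 1 in DESeq2. In limma 132 genes (0.95%) had an unadjusted p under 0.05. With no change in any gene a fraction near 0.05 would be expected. The 0 calls therefore do not show an absence of effect. MMF and DMF share their DMSO libraries in these values.

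For Hmox1, the log2FC over DMSO was 3.92 with DMF and 1.06 with MMF (95% interval 0.77 to 1.35), and DMF exceeded MMF by 2.86 (adjusted p = 1.27e-14). Osgin1 and Srxn1 were also higher with DMF, by 1.32 and 0.70, with MMF at 1.12 and 0.87 over DMSO. Of 31 Nrf2 targets 11 were higher and 1 lower with DMF than with MMF. Some did not differ past the threshold. Gstp1 differed by 0.11 (95% interval -0.029 to 0.26), Prdx1 by 0.089 (-0.031 to 0.21) and Me1 by 0.16 (0.026 to 0.30).

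For the other pathways, Hspa5 was 0.85 higher with DMF than with MMF (adjusted p = 2.61e-09), and MMF over DMSO was 0.026 (95% interval -0.13 to 0.18). Of 16 ER chaperones 11 were higher with DMF than with MMF. Sesn2 differed by 1.53 and had -0.035 with MMF (-0.29 to 0.22). In the ATF4 list 23 of 43 genes were higher with DMF. Nfya differed by -1.31, with -0.029 for MMF (-0.20 to 0.15). Of the sterol synthesis genes 13 of 20 were lower with DMF than with MMF, and their median for MMF over DMSO was -0.12.

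**Figure D4:**
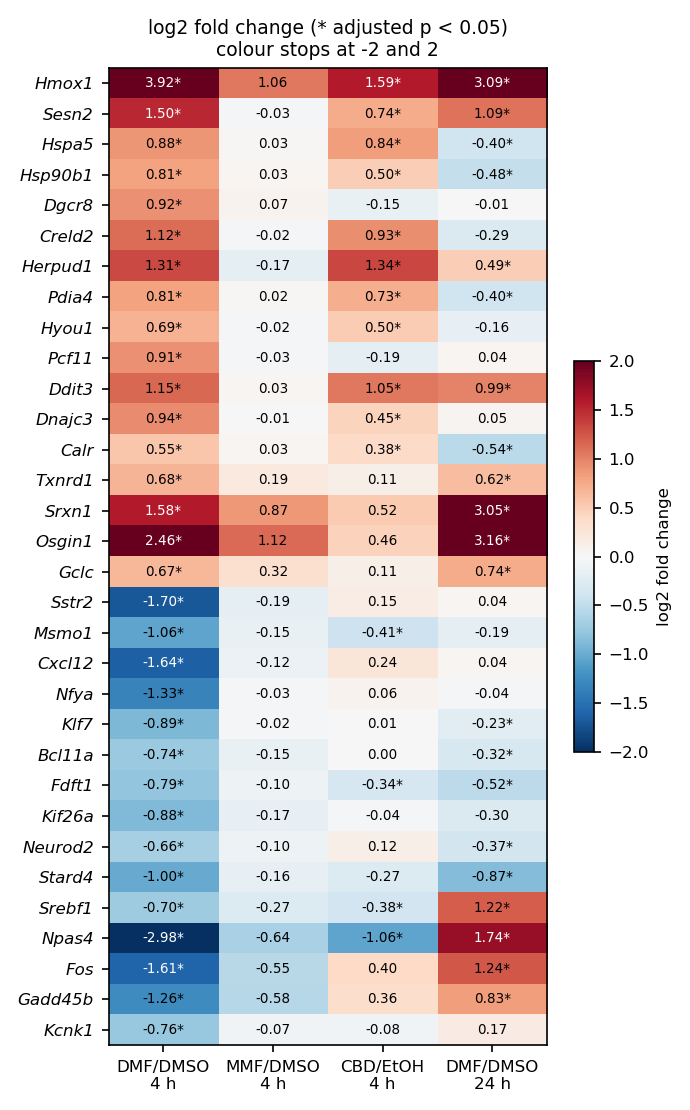
Log2 fold changes over the respective vehicle (colour scale) of 32 genes in 4 comparisons, DMF at 4 h, MMF at 4 h, CBD at 4 h and DMF at 24 h. Hspa5 is at 0.88 with DMF, 0.026 with MMF and 0.84 with CBD at 4 h and at -0.40 with DMF at 24 h.

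CBD against EtOH, with no library shared, is set beside DMF only as values, since dose and vehicle differ. It gave 235 genes up (1.67%) and 95 down (0.674%) of 14092, and 1 call in all without the replicate block. In the ER stress and ATF4 lists, Hspa5 (0.84), Herpud1 (1.34), Ddit3 (1.05) and Chac1 (1.33) rose with CBD too. Of 16 ER chaperones 8 rose with CBD, and of 20 sterol synthesis genes 15 fell, with a median of -0.29. Nfya (0.064, adjusted p = 0.583), Sstr2 (0.15, adjusted p = 0.255) and Dgcr8 (-0.15, adjusted p = 0.189) did not pass with CBD. Mt1, which fell with DMF, rose by 3.54 with CBD.

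After 24 h with DMF, 810 of 13875 genes were higher than with DMSO (5.84%) and 990 lower (7.14%), and without the replicate block 554 genes were called in all. Of the genes called at 4 h, 3184 were tested at 24 h, and 563 of them were called at both times, 366 in the same direction and 197 in opposite directions. The difference between the effects was tested as an interaction over 12 libraries, and was called in 1896 of 14297 genes (13.3%), above 0 in 900 and below 0 in 996. Without replicate 2 the counts were 280 and 280, and without replicate 3 they were 305 and 366.

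Of 31 Nrf2 targets, the interaction was called above 0 in 7 and below 0 in 2, Ugdh (-0.67, adjusted p = 0.00202) and Idh1 (-0.30, adjusted p = 0.0475). Nqo1 went from a log2FC of 0.65 at 4 h to 2.35 at 24 h (difference 1.71, adjusted p = 0.000588), Gsta1 from 0.75 to 2.34 (1.59, adjusted p = 0.000144) and Gstp1 from 0.32 to 1.55 (1.24, adjusted p = 3.53e-05). Hmox1 did not differ past the threshold (3.92 and 3.09, adjusted p = 0.351).

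The effect on ER chaperones differed between the times. Hspa5 went from 0.88 at 4 h to -0.40 at 24 h, a difference of -1.29 (adjusted p = 4.86e-05), and Calr from 0.55 to -0.54. Of 16 chaperones, the interaction was called below 0 in 9 and above 0 in none, and at 24 h 4 of the 15 tested were lower than with DMSO. Sesn2 (1.09), Ddit3 (0.99) and Chac1 (1.32) were still higher at 24 h, and their difference between times did not pass (adjusted p = 0.15, 0.566 and 0.655).

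Sterol synthesis stayed low, with 15 of 20 genes down at 24 h and a median of -0.42, and the interaction was called above 0 in 1, Msmo1 (0.86), and below 0 in 1, Sc5d (-0.35). Of the 12 genes of sterol transport and control, 5 were higher and 2 lower at 24 h, and the interaction was called above 0 in 5. Srebf1 went from -0.70 to 1.22 (difference 1.92, adjusted p = 5.18e-06) and Insig1 from -0.56 to 0.44 (1.00, adjusted p = 0.00026).

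Immediate early genes, of which 26 of 40 fell at 4 h, gave 18 rises and no fall at 24 h. Npas4 went from -2.98 to 1.74 (difference 4.72, adjusted p = 0.00818), with DMSO replicate 1 at 4 h in the fit. The interaction was called above 0 in 24 of the 40, with DMSO replicate 1 at 4 h in each fit. Without replicate 1, 17 members of this list fell at 4 h, and the interaction over the list is not given without it. Outside this list, Rgs4, a regulator of G protein signalling, went from -0.87 to 1.66 (2.53, adjusted p = 1.77e-06). Mitosis genes did the opposite of the immediate early genes. Of 25, 12 rose at 4 h and 24 fell at 24 h, with a median of -1.03 at 24 h, and the interaction was called below 0 in 23. Top2a went from 0.32 to -1.47 (-1.79, adjusted p = 8.83e-07).

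**Figure D5:**
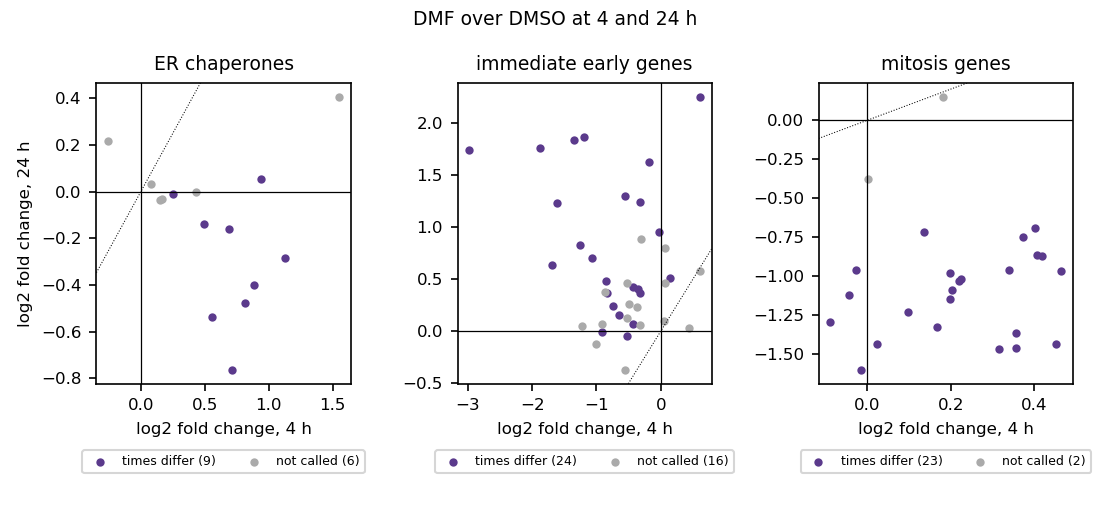
Log2 fold change of DMF over DMSO at 24 h (vertical axis) against that at 4 h (horizontal axis) for 15 ER chaperones tested at both times, 40 immediate early genes and 25 mitosis genes, with genes whose times differ (interaction, adjusted p under 0.05) in purple. The dotted line marks equal values, and ER chaperones and mitosis genes lie mostly below it and immediate early genes above it.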

How the data were processed

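RNA of the neurons was sequenced as poly(A) libraries. The authors trimmed reads with cutadapt 4.4 and Trimmomatic 0.39 after FastQC 0.12.1, aligned them with HISAT2 2.2.1 to mRatBN7.2 and counted them per Ensembl gene with HTSeq 2.0.3. The strand setting and the handling of reads shared between genes are not given in the sources used here. Each deposited table compares 2 groups, and its signal values are counts that the authors divided by DESeq2 1.40.2 size factors of its 6 libraries. The authors' fold changes and p-values in those tables were not used. Of these tables, 7 were used, and 100% of their values came out as whole reads (tolerance 0.001), with 0 of 247947 values differing between tables. A gene that a table does not list was taken as 0.

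Log2 of the normalized count with a pseudocount of 1 was tested in limma 3.58.1 (R 4.3.3, empirical Bayes with a mean trend) with the replicate number as a block. Genes were kept by edgeR 4.0.16 filterByExpr, and p-values adjusted by Benjamini-Hochberg over the 14208 genes of any type tested. The interaction was fitted on recovered reads with size factors of its 12 libraries. Intervals are 95%. The pairing comes from the 3 independent experiments of the series. Deviations from group means correlated at 0.338 to 0.6 between DMF and DMSO libraries of the same number and at -0.473 to 0.0341 between different numbers, with a minimum of 0.1 set. In all comparisons of groups at the same time, same-numbered libraries correlated at 0.129 or more. Between libraries of 4 h and 24 h, which the interaction joins by replicate number, the correlation was not measured. The value of 0.129 was that of replicate 2 of MMF and DMSO at 4 h. MMF replicate 2 correlated with DMSO replicate 1 at 0.134, so that the pairing is not borne out for this library. Between CBD and EtOH at 4 h, libraries of different numbers reached 0.138. With the block, differences in level between the 3 experiments are taken out. The p-values measure the spread that remains, which in a comparison of 2 groups is that of the paired differences.

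Genes named are called genes with a symbol, no overlap between groups and all 3 pairs moving alike, the 10 highest and lowest by log2FC with a mean of at least 50 and the 10 each with the smallest p, and members of the lists. Some of these genes are not reported here. The members and lists were chosen with earlier results of these data known. Alternatives were no block, TMM scaling, edgeR's quasi-likelihood test and DESeq2 1.42.0 on recovered reads, a pseudocount of 4, no filter, a spread from all 30 libraries, a log2FC minimum of 0.5, and leaving out each replicate. The count of genes ending before a start and the sterol element were added after seeing the data. The tests were tried on simulated data. Tables and figures used matplotlib 3.10.9, pandas 2.3.3 and NumPy 2.4.6 under Python 3.11.15.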

Additional observations from a re-analysis of the deposited data

Results flagged for a closer look

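Of 21 genes checked for time, drawn from the 3 called genes with the smallest p in each of 6 lists (Nrf2 targets, ER stress, ATF4, sterol, immediate early genes and channels) and the 5 each with the smallest p among rises and falls, counted once, 13 had an effect of DMF at 24 h that differed from that at 4 h in the interaction test of limma with the replicate block. The log2FCs and the difference, 24 h minus 4 h, are given for each. The genes were taken by their p at 4 h, and the interaction uses the same 4 h libraries. Over all genes called at 4 h and tested at 24 h, the interaction was called in 557 of 1548 that rose and 605 of 1636 that fell.

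Among genes that rose at 4 h, these were Hspa5 (0.88 at 4 h, -0.40 at 24 h, difference -1.29, adjusted p = 4.86e-05), Hsp90b1 (0.81 at 4 h, -0.48 at 24 h, difference -1.29, adjusted p = 1.93e-05), Creld2 (1.12 at 4 h, -0.29 at 24 h, difference -1.41, adjusted p = 1.94e-05) and Dgcr8 (0.92 at 4 h, -0.0069 at 24 h, difference -0.93, adjusted p = 2.72e-05).

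Among sterol and signalling genes that fell at 4 h, these were Msmo1 (-1.06 at 4 h, -0.19 at 24 h, difference 0.86, adjusted p = 4.62e-05) and Rgs2 (-0.92 at 4 h, -0.0048 at 24 h, difference 0.91, adjusted p = 0.0246). The growth and stress genes among them were Btg2 (-0.74 at 4 h, 0.24 at 24 h, difference 0.98, adjusted p = 0.00333) and Gadd45b (-1.26 at 4 h, 0.83 at 24 h, difference 2.09, adjusted p = 0.000523). Rgs2, Btg2 and Gadd45b are immediate early genes, for which DMSO replicate 1 at 4 h stood apart. The channel genes were Kcnk1 (-0.76 at 4 h, 0.17 at 24 h, difference 0.92, adjusted p = 0.000175) and Kcna1 (-0.80 at 4 h, 0.52 at 24 h, difference 1.32, adjusted p = 0.000588). For Kcna1 too DMSO replicate 1 at 4 h was the highest, at 3758 against 1551 and 2186. The others were Sstr2 (-1.70 at 4 h, 0.042 at 24 h, difference 1.74, adjusted p = 0.000636), Cxcl12 (-1.64 at 4 h, 0.041 at 24 h, difference 1.68, adjusted p = 2.72e-05) and Nfya (-1.33 at 4 h, -0.043 at 24 h, difference 1.29, adjusted p = 1.93e-05).

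Of 123 genes of other types than protein-coding that were tested, 12 were called between DMF and DMSO at 4 h, all of them higher with DMF. They were 10 of 28 microRNA genes and 2 of 78 snoRNA genes. Mir22 was counted at 95.4, 59.6 and 69.5 with DMSO and 227, 203 and 252 with DMF (log2FC 1.61, adjusted p = 4.96e-06), without overlap. Mirlet7c2 went from 43.9, 21.0 and 27.3 to 109, 82.1 and 84.5 (log2FC 1.60). Poly(A) libraries count fragments of primary transcripts at such genes, not mature microRNAs, and how much comes from host genes was not tested.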

How the results depend on the processing

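Of 280 called genes that are named or are list members, 0 changed direction under any alternative and 72 kept their call under all of them. Calls were lost for 206 genes without the replicate block, 84 with DESeq2, 92 with a spread from all 30 libraries, 12 without a filter, 7 with TMM scaling, 7 with edgeR and 0 with a pseudocount of 4. With DESeq2, 194 genes kept their call, so that the counts kept and lost do not cover all 280.

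Genes higher with DMF than with DMSO at 4 h numbered 261 without the replicate block, 878 with DESeq2 and 451 with a log2FC minimum of 0.5, and 756 to 1707 without 1 replicate each. Genes lower numbered 220, 869 and 556, and 863 to 1771. Against MMF, 130 genes were higher without the block and 923 with DESeq2 (674 to 2017 without 1 replicate), and 93 and 822 were lower (776 to 2023). The difference between 24 and 4 h was above 0 in 258 genes and below 0 in 333 without the block, and in 280 to 687 and 280 to 729 without 1 replicate. The lowest counts came without replicate 3 at 4 h and without replicate 2 for the difference between times, and the cause was not tested. Without replicate 3, 80 of the 280 genes lost their call, against 34 without replicate 1 and 25 without replicate 2. The other alternatives kept each count within 1.5 times. Small changes of genes at low counts are limited by the depth of 16911610 to 25367834 reads a library.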

Other observations

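Feedback genes of MAP kinase signalling moved both ways at 4 h. Of 9 dual-specificity phosphatases, which switch MAP kinases off, 3 fell and 2 rose. Dusp10 was counted at 100.2, 109 and 95.7 with DMSO and 52.6, 58.7 and 53.8 with DMF (log2FC -0.87, adjusted p = 0.00214 in limma), Dusp6 had a log2FC of -0.44 and Dusp5 one of -0.63, while Dusp4 (0.21) and Dusp16 (0.32) rose. Of 9 genes of the sprouty group and its ETS factors, Spry1 (-0.49) and Spry2 (-0.22) fell and Spred1 (0.25) and Etv5 (0.28) rose. Over both groups 5 fell, but 2 without replicate 1, whose DMSO library stood apart for immediate early genes, when Dusp6 had an adjusted p of 0.109, Dusp5 one of 0.319 and Spry2 one of 0.275 in limma. Of the 4 rises, 2 were left in number without replicate 2, when Dusp4 had an adjusted p of 0.126 in limma, and 2 without replicate 3. At 24 h the effect on Dusp10 was 0.47, and the difference between times was 1.34 (adjusted p = 0.00139).

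Creb1, the factor that binds the cyclic AMP element, was counted at 602, 783 and 723 with DMSO and 1329, 1262 and 1290.1 with DMF and rose by a log2FC of 0.89 (adjusted p = 2.62e-06), without overlap of the groups. It is outside the rule for named genes and was chosen after its values were seen. Among the autophagy genes, Tfe3 (0.41), a lysosomal factor, Wipi1 (0.33), Gabarapl1 (0.29) and the kinase Ulk1 (0.28) rose. Of 13 genes encoded in mitochondria 2 fell and none rose, with a median log2FC of -0.041.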
